A study of Ovis aries with 22 samples.

Results

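Septal tissue of the sheep heart, from the wall that divides the ventricles, was compared between lambs aged 14 days and fetuses at term. Its members are the 16 arrays of septum RNA that the labels assign to term fetuses (8) or to lambs (8), out of 22 arrays in the study. The other 6, from fetuses at 130 days of gestation, entered only 1 alternative fit. Term fetuses were at around 145 days of gestation. The lambs had been born naturally. Per the labels and the design text, no ewe or fetus was treated, and no ewe had a gestational disease or was showing signs of labour. No group carries an engineered allele or an agent. Breed and sex, and whether any animals shared a ewe, are not given in the sources used here.

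Birth takes the heart from a circulation in which the lungs are largely bypassed and oxygen is scarce to one in which the left ventricle carries the high-pressure load and oxygen is plentiful. Heart muscle then moves from glucose and lactate towards fatty acids as its main fuel, its cells largely stop dividing, and the animal meets microbes for the first time. The comparison asks which transcripts of the septum differed between the sides of that passage.

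Slide and scan date differed wholly between the groups. Term fetuses lay on slides 1 to 4, all scanned on 1 date, and lambs on slides 5, 6 and 7, scanned on 3 other dates. The groups shared 0 slides and 0 scan dates, so age and array batch cannot be told apart in any result that follows. Slide could only be fitted as a random block, which lets arrays of 1 slide resemble each other, and the text says where the call of a gene it describes ends with it. Gene spots well above background numbered 11706 to 12412 per array at term and 10193 to 12202 in lambs, of 15208, and none was saturated. Spike-in control probes averaged 6.42 to 7.26 on the log2 scale on term arrays and 8.30 to 10.06 on lamb arrays, with no overlap, and their part in the differences was not tested. Within a group, arrays correlated at 0.975 to 0.99 (term) and 0.94 to 0.986 (lamb). Precision is set by there being 8 arrays in each group, and p-values measure the spread between these arrays. Of 24 heart muscle markers on the list used, the array names 1, myoglobin (MB). MB lay at or above the 99.8th percentile of tested features on every array and differed by 0.15 ± 0.12 (SE; adjusted p = 0.357).

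Of 11805 genes or unnamed transcripts tested, 4581 (38.8%) passed an adjusted p under 0.05. Of these, 1875 (15.9%) were higher in lambs and 2706 (22.9%) lower. Values throughout are log2 signals after subtraction of each array's 75th percentile, differences are lamb minus term with their standard error, and adjusted p comes from limma with Benjamini-Hochberg adjustment over all 11805 features. Each group has 8 arrays. A difference of over 1 on this scale was reached by 325 of the higher and 1421 of the lower features. Every lamb lay above every term fetus for 338 features (2.86%) and below every one for 1011 (8.56%). With slide as a random block, 1162 features (9.84%) were called higher and 2172 (18.4%) lower, all of them among the calls without it. With scan date as the block, 103 were higher and 702 lower.

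**Figure D1:**
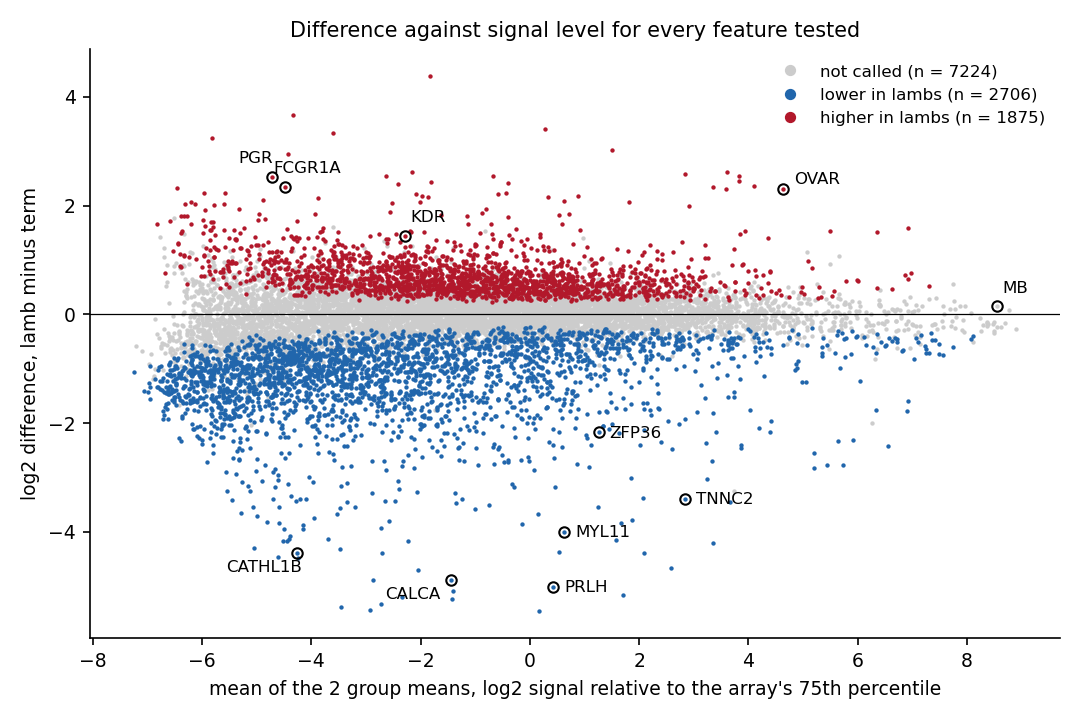
Each point is 1 of 11805 features, placed by signal level (mean of the group means, log2 above each array's 75th percentile) and by the log2 difference, lamb minus term. Blue points, the 2706 lower in lambs, thicken on the left among dim features, while the 1875 red points, higher in lambs, spread over the range. Circles mark genes described in the text.

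The balance of rises and falls depended on signal level and on scaling. Among the dimmest 3935 of the features, 436 were higher and 1317 lower in lambs. Among the brightest 3935 the counts were 631 and 639. Other ways of scaling gave more even splits, with 2486 higher and 2258 lower after quantile normalization and 2482 and 2315 after scaling to the median. Background correction with normexp, which pulls dim signals together, gave 1215 higher and 993 lower and moved the median difference of all features from -0.01 to 0.19. Where the call of a gene named below ended or turned under normexp, its normexp difference is given beside it. The exceptions are tie2, FLT1, SELE, ATP5PO and CDKN1B, whose normexp differences are not given. Lambs spread more than term fetuses: the median standard deviation of a feature was 0.425 among lambs and 0.26 at term.

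A named gene is represented by the brightest of its probes, which are 60 bases long, and the sequences show which bases a value was read from. Those printed here were chosen because 1 gene is seen through several probes, and capitals mark the bases that a probe shares with another probe of the same gene. Sequences are those of the array's own design, 5' to 3'.
KDR probe A: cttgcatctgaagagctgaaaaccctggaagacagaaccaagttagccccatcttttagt
KDR probe B: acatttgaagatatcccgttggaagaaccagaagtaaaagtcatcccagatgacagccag
KDR probe C: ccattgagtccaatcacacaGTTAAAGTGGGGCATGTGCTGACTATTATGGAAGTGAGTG
KDR probe D: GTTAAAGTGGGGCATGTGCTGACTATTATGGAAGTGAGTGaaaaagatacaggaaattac
TNNC2 probe A: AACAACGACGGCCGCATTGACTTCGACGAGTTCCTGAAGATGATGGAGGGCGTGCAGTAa
TNNC2 probe B: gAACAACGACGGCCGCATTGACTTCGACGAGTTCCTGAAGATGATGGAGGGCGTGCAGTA
EGR1 probe A: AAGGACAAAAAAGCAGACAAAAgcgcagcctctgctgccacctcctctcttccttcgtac
EGR1 probe B: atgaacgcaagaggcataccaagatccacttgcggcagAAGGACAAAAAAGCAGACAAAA
ZFP36 probe A: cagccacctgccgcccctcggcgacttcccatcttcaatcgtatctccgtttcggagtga
ZFP36 probe B: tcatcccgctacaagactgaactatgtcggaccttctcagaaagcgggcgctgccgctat

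The KDR probes all read higher in lambs, by 1.45, 1.20, 0.77 and 0.67 for A to D, so their sizes differed although their sign did not. C and D share 40 bases and TNNC2's probes share 59, so the members of these pairs are not independent measurements. The TNNC2 probes read -3.39 and -3.49. EGR1's probes share 22 bases and disagreed, with -0.78 on A and 1.87 on B, but B was well above background on 1 lamb array and 0 term arrays. ZFP36's probes share no stretch of 15 bases or more, the least that was marked. Probe A read -2.17 at a bright level, and probe B, much dimmer, read 0.17. Over all called genes with a further probe well above background on at least 4 arrays of a group, 156 of 172 further probes (90.7%) had the sign of the probe used.

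Genes of fast skeletal muscle fell. MYL11, the regulatory light chain of fast skeletal fibres, read 2.17 to 3.15 (median 2.63) in term fetuses and -2.49 to -0.37 (median -1.53) in lambs. No lamb reached a term fetus, and the difference was -4.00 ± 0.27 (SE; adjusted p = 5.44e-08). TNNC2, the calcium-binding troponin subunit of fast fibres, read 4.08 to 5.48 (median 4.46) in term fetuses and -0.60 to 4.03 (median -0.28) in lambs. Its lambs fell into separate levels: lambs 1, 4 and 5 read 3.75, 4.03 and 3.61, just under the term fetuses, while the other 5 read -0.60 to -0.26. In MYL11, lambs 4 and 5 were again the highest lambs, at -0.40 and -0.37, but lamb 1 was the lowest, at -2.49. The difference of TNNC2 was -3.39 ± 0.73 (SE; adjusted p = 0.00141). Among lambs of slide 5 alone it was -0.72 and did not pass.

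MYOD1, the skeletal muscle lineage factor, was dim and read -4.69 to -3.75 (median -4.14) in term fetuses and -6.04 to -4.37 (median -5.22) in lambs, a difference of -1.07 ± 0.20 (SE; adjusted p = 0.000552) that turned to 0.11 under normexp. All 3 tested skeletal muscle markers of 4 on the array were thus called lower, beside 22.9% of all features. The summed level of these markers, the log2 of the members' summed signal, ran from 4.42 to 5.75 at term and from 0.03 to 4.10 in lambs. Such a sum is taken before the log2, so bright members carry most of it, here TNNC2. In bulk tissue, fewer cells of a type and less RNA per cell cannot be told apart. Among 9 tested sarcomere and contractile genes, 2 rose and 2 fell (MYL11 and TNNC2), where 15.9% and 22.9% of all features did. The list's median was 0.18, beside -0.01 over all features. FHL1, a LIM-domain protein of striated muscle, rose by 1.19 ± 0.27, and MYLK, the kinase of myosin light chain, by 0.77 ± 0.20. The cardiac myosin heavy chains, the cardiac troponins and the natriuretic peptides of the heart carry no symbol among the features read here and were not analysed.

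**Figure D2:**
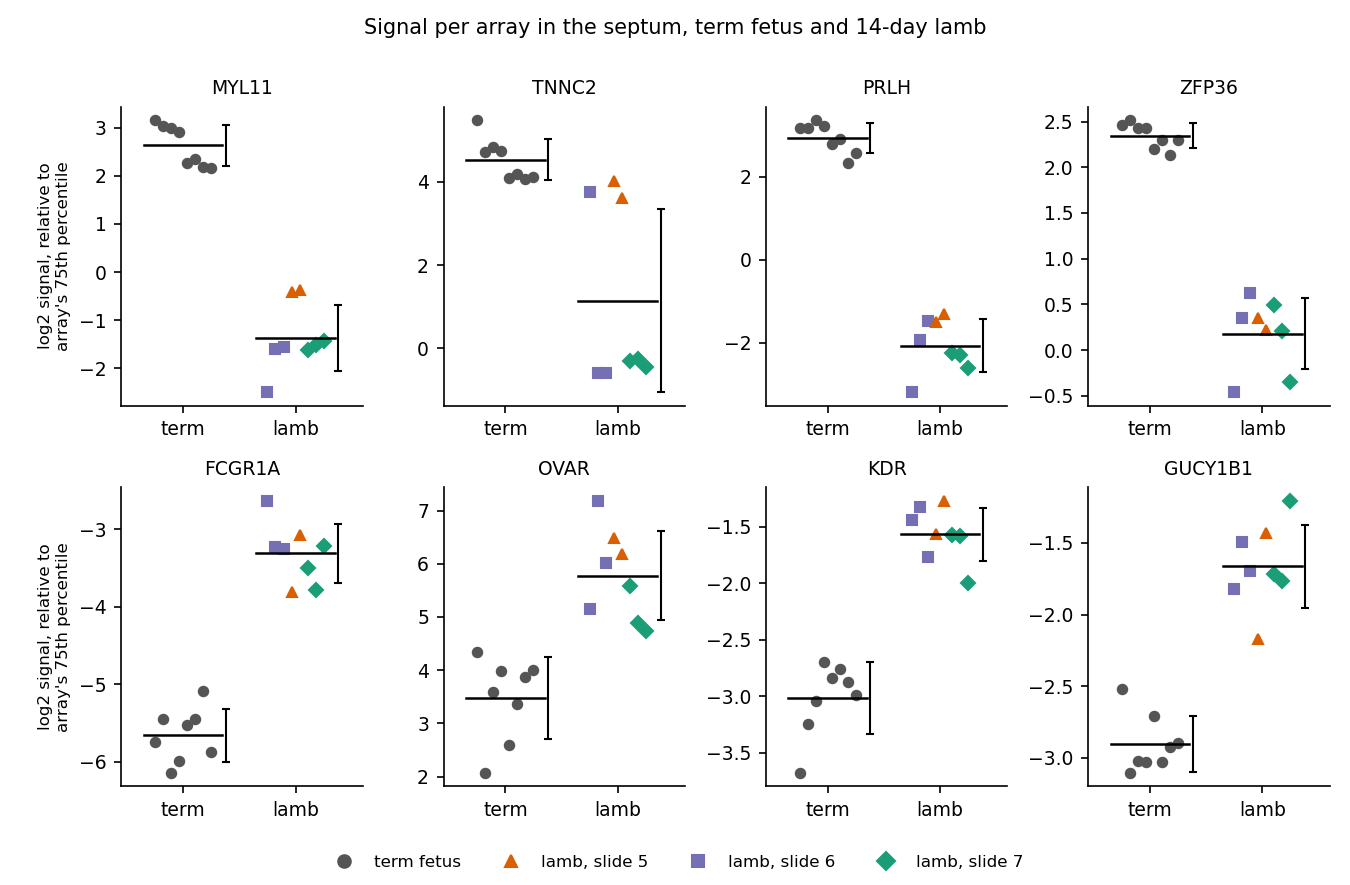
Log2 signal after subtraction of each array's 75th percentile for 8 genes, 1 point per array, with the group mean (line) and SD (bar). Lambs are marked by slide. The groups do not overlap for any of the 8 genes, and the lambs of TNNC2 lie at separate levels.

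Most tested genes of antigen presentation and of the interferon response rose, as did most markers of white blood cells, though none of the T cell markers. With scan date as a block most of these rises lost their calls. Of the risen genes of these lists described below, only CTSS and FCGR1A kept theirs (limma, adjusted p = 0.0154 and 0.002). Of 11 antigen presentation genes tested, 9 rose and 1 fell (7 and 1 with slide as a block), with a median difference of 0.77, where 15.9% and 22.9% of all features rose and fell. The gene listed as OVAR, an MHC class I antigen that shows cell contents to cytotoxic T cells, read 2.07 to 4.35 (median 3.73) in term fetuses and 4.73 to 7.18 (median 5.80) in lambs. No lamb overlapped a term fetus, and the difference was 2.30 ± 0.37 (SE; adjusted p = 0.000148). MHCII-DRB1, an MHC class II chain, read -3.63 to -0.40 (median -0.99) in term fetuses and -0.31 to 1.07 (median 0.65) in lambs and rose by 1.79 ± 0.37. CTSS, the protease cathepsin S that prepares class II molecules for loading, read -1.89 to -1.06 (median -1.61) in term fetuses and -0.70 to 0.67 (median 0.17) in lambs and rose by 1.67 ± 0.19. All 8 lambs exceeded all 8 term fetuses for each of these 3 genes.

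PSMB8, a subunit of the immunoproteasome that cuts peptides for class I, rose by 0.88 ± 0.20. Of the costimulatory ligands of T cells, CD86 rose by 1.07 ± 0.18, although a second, dimmer probe read -0.19. CD80, a dim gene, fell by 1.14 ± 0.21 and read -0.08 under normexp.

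Of 10 tested white blood cell markers, 6 rose and none fell, where 15.9% and 22.9% of all features did. With slide as a block 4 rose, and without lamb 8 or without the term fetuses of slide 1, 5 did. This list and that of antigen presentation share risen members, CTSS among them, so their counts are not independent. FCGR1A, the high-affinity receptor for IgG on macrophages and monocytes, read -6.14 to -5.09 (median -5.64) in term fetuses and -3.81 to -2.64 (median -3.24) in lambs. The groups did not overlap, and the difference of 2.34 ± 0.18 (SE; adjusted p = 1.58e-07) passed under every alternative in which it was fitted. LYZ, lysozyme of macrophages and granulocytes, read -5.61 to -3.86 (median -4.29) in term fetuses and -4.54 to -2.51 (median -2.93) in lambs and rose by 1.34 ± 0.29. ITGB2, the beta chain of leukocyte integrins, rose by 0.87 ± 0.19. CD14, a monocyte co-receptor for endotoxin, read -2.86 to -2.05 (median -2.40) in term fetuses and -3.39 to -2.03 (median -2.88) in lambs, a difference of -0.38 ± 0.18 (SE; adjusted p = 0.1) with overlapping groups. CD14 passed as lower without lamb 1 (-0.50, adjusted p = 0.0192), with array weights and among the lambs of slide 7 alone. Of the T cell markers, CD5 read -0.83 ± 0.33 (adjusted p = 0.0531), CD3D -0.29 ± 0.31 and CD3E -0.24 ± 0.37, so all 4 markers that did not pass read lower in lambs. The summed level of the white cell markers ran from 0.12 to 0.79 at term and from 0.67 to 1.66 in lambs, and its part in the rises of antigen presentation genes was not tested.

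**Figure D3:**
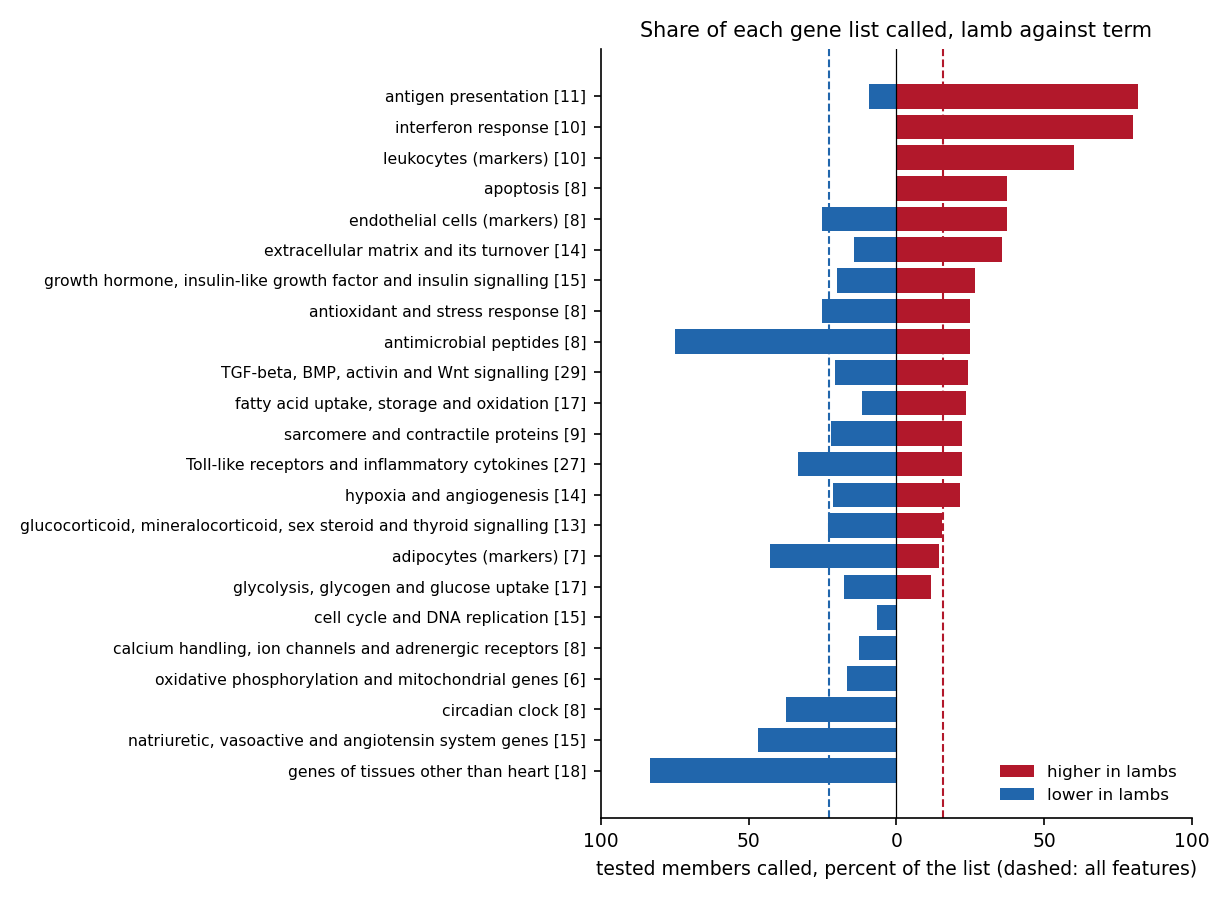
For each list with at least 5 tested members, the share of them (number in brackets) called higher (red, to the right) or lower (blue, to the left) in lambs. Dashed lines give the share over all 11805 features, 15.9% higher and 22.9% lower. Antigen presentation (9 of 11), interferon response (8 of 10) and white cell markers (6 of 10) reach furthest right, and genes of tissues other than heart (15 of 18) and antimicrobial peptides (6 of 8) furthest left.

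Interferon response genes rose in 8 of 10 cases and fell in none, where 15.9% and 22.9% of all features did. Their median was 0.99. With slide as a block 4 of the 10 were called, and without the term fetuses of slide 1, 5. IRF1, a transcription factor induced by interferon gamma, read -4.33 to -2.97 (median -3.59) in term fetuses and -3.77 to -1.56 (median -2.02) in lambs and rose by 1.44 ± 0.27 (SE; adjusted p = 0.000435). IFNAR2, a chain of the type I interferon receptor, read -1.16 to -0.53 (median -0.76) in term fetuses and -0.35 to 0.31 (median -0.07) in lambs without overlap and rose by 0.75 ± 0.12.

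The most inducible members varied widely within both groups. ISG15, a ubiquitin-like protein made on interferon exposure, read -3.03 to 1.14 (median -0.15) in term fetuses and -1.74 to 3.60 (median 1.96) in lambs. CXCL10, a chemokine that draws T cells, read -7.93 to -3.59 (median -4.37) in term fetuses and -4.89 to -0.78 (median -2.78) in lambs. MX1, an antiviral GTPase, read -2.02 to 1.04 (median -0.33) in term fetuses and -1.28 to 2.55 (median 0.91) in lambs. Lamb 4 was the lowest lamb for each of these 3 and lay among the term fetuses, and lamb 5, of the same slide, was the highest or second highest. Their differences were 2.08 ± 0.69, 2.15 ± 0.66 and 1.42 ± 0.50, and none passed with slide as a block (adjusted p = 0.0789, 0.0513 and 0.0929). MX1 also failed when term fetus 1 or 2 or lamb 2, 3, 5 or 8 was left out, with differences of 1.19 to 1.36, and under normexp, with 1.29. IFNG, which encodes interferon gamma itself, was dim and went the other way, from -4.10 to -3.53 at term to -5.60 to -4.43 in lambs, a fall that shrank to -0.06 under normexp.

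Of 27 tested cytokines, Toll-like receptors and related genes, 6 rose and 9 fell, with a median of 0.01, where 15.9% and 22.9% of all features rose and fell. The counts were 4 and 7 with slide as a block, 2 and 1 under normexp, and 9 and 7 after quantile normalization, so the balance turned with the scaling. IL18, a cytokine released through the inflammasome, read -5.88 to -4.26 (median -5.25) in term fetuses and -3.70 to -2.76 (median -3.60) in lambs and rose by 1.72 ± 0.23, although 1 of its other 2 probes read -0.76. TLR3, the endosomal receptor for double-stranded RNA, read -3.29 to -2.76 (median -3.05) in term fetuses and -2.45 to -1.65 (median -1.97) in lambs and rose by 1.05 ± 0.12. The complement component C3 rose by 1.66 ± 0.33, though its groups overlapped and it did not pass among lambs of slide 7 alone. IL1A was well above background on 0 term and 6 lamb arrays, at least 1.39-fold higher in lambs (means -7.43 and -5.72; 0.67 under normexp, which did not pass). Such a bound sets the bright group's mean against the higher, on each dim array, of the probe's own signal and the lowest signal among probes well above background. IL3, a dim haematopoietic growth factor, read lower in every lamb, but its difference of -1.28 ± 0.14 was -0.01 under normexp.

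The cathelicidins, antimicrobial peptides stored in the granules of neutrophils and their marrow precursors, fell in lambs. Of 8 antimicrobial genes tested, 6 fell and 2 rose (4 and 2 with slide as a block), where 22.9% and 15.9% of all features did. Their median was -1.87, but under normexp none was called lower. The falls include a gene well above background on 4 term and 0 lamb arrays. The filter let it in through the term arrays alone, so the count of falls is no test of the list. All 4 named cathelicidins on the array were lower in lambs. CATHL1B read -4.77 to -0.06 (median -1.79) in term fetuses and -8.75 to -3.74 (median -6.81) in lambs, CATHL3 -5.50 to -0.09 (median -1.50) in term fetuses and -8.90 to -2.37 (median -5.99) in lambs, and BAC5 -4.77 to 0.09 (median -0.97) in term fetuses and -7.61 to -2.01 (median -5.37) in lambs. In lambs these 3 were well above background on 4, 4 and 5 of 8 arrays, so the lamb means and the differences rest partly on signals near background. The term fetuses of slide 1 read -4.43 and -4.77 for CATHL1B, far under the other 6, and lambs 7 and 8 read -3.78 and -3.74, far over the other 6. The same 4 arrays stood out the same way for CATHL3 and BAC5. The differences were -4.39 ± 0.86, -3.96 ± 1.02 and -3.66 ± 0.89, with adjusted p = 0.000705, 0.00555 and 0.00372. SC5 had the narrowest spread, -3.22 to -0.82 (median -1.99) in term fetuses and -5.19 to -3.87 (median -4.17) in lambs, no overlap and a difference of -2.32 ± 0.30. Under normexp the 4 differences were -1.52, -1.38, -1.53 and -0.87, and none passed (adjusted p = 0.0534, 0.0988, 0.0672 and 0.0564). These genes lie in 1 family with related sequence, and how far their probes read each other's transcripts was not tested.

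**Figure D4:**
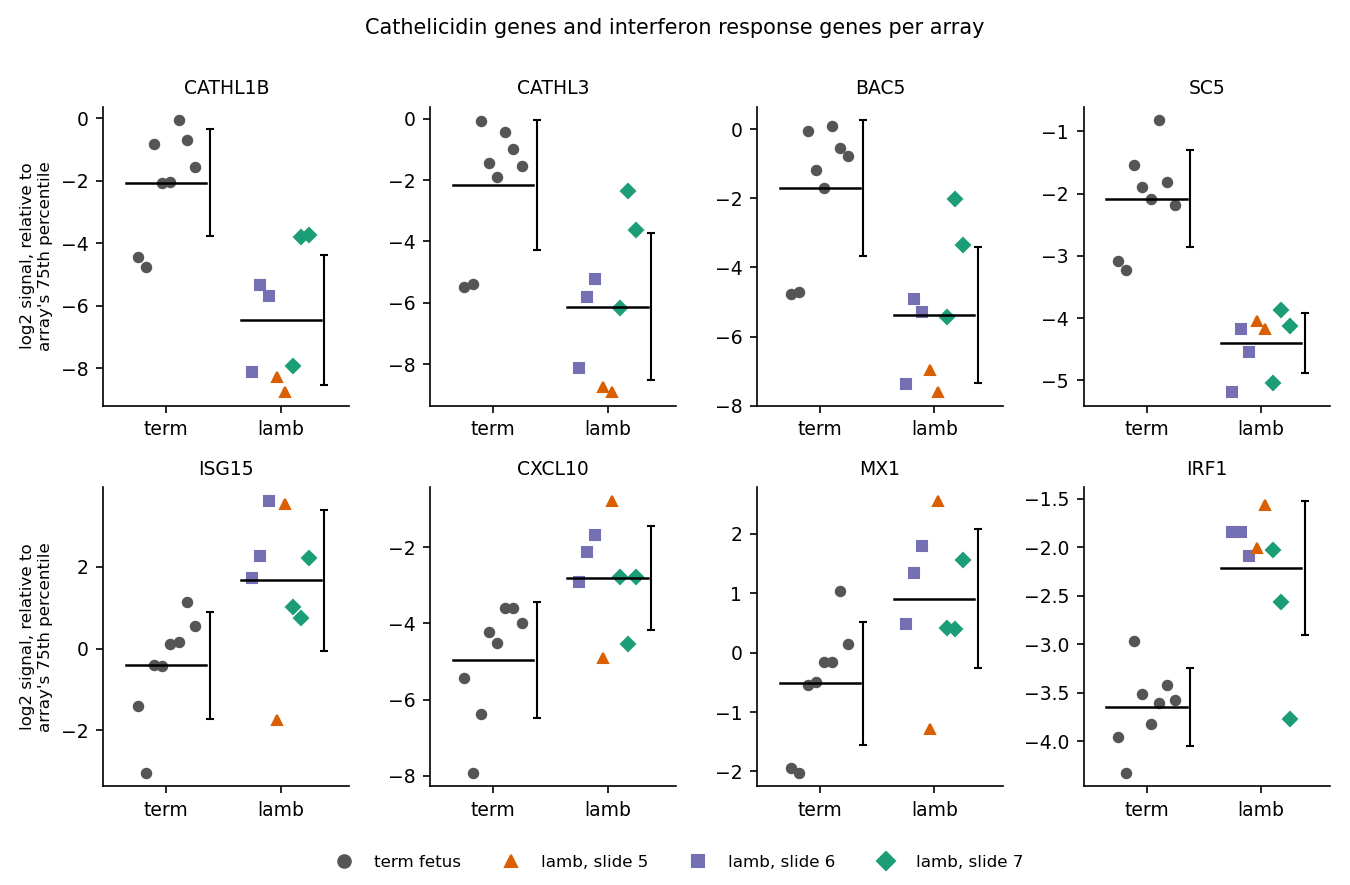
Log2 signal after subtraction of each array's 75th percentile for 4 cathelicidin genes and 4 interferon response genes, 1 point per array, with mean (line) and SD (bar), lambs marked by slide. In CATHL1B, CATHL3 and BAC5, 2 term fetuses lie with the lambs and 2 lambs of slide 7 lie near the term fetuses, while SC5 separates the groups.

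Of 15 tested genes of growth hormone, insulin-like growth factor and insulin signalling, 4 rose and 3 fell (2 and 3 with slide as a block), with a median of 0.18. Over all features 15.9% rose and 22.9% fell, so the list's counts are no result about it. IGF1, the growth factor that growth hormone induces after birth, read -4.71 to -2.79 (median -3.78) in term fetuses and -4.20 to -1.53 (median -2.43) in lambs and rose by 1.22 ± 0.33 (SE; adjusted p = 0.00694). Lamb 4 had the lowest lamb value, and among the lambs of slide 5 alone IGF1 did not pass. GHR, the growth hormone receptor, read -1.36 to -0.79 (median -1.0) in term fetuses and -0.68 to 0.89 (median -0.31) in lambs, with every lamb above every term fetus, and rose by 0.93 ± 0.20. IGF1R, the receptor of IGF1, rose by 0.72 ± 0.22 but did not pass with slide as a block (adjusted p = 0.0577).

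IGF2, the main insulin-like growth factor of the fetus, read 3.01 to 6.59 (median 6.09) in term fetuses and 4.79 to 5.56 (median 5.14) in lambs, a difference of -0.63 ± 0.39 (SE; adjusted p = 0.21). Term fetus 1 stood alone at 3.01, below every lamb, while the other 7 term fetuses read 5.88 to 6.59, above every lamb. Without that array IGF2 passed with a difference of -1.03. IGFBP5, a binding protein of the insulin-like growth factors, read -0.89 to 0.55 (median 0.19) in term fetuses and -1.69 to -0.59 (median -1.07) in lambs and fell by 1.12 ± 0.21. LEP, the fat-cell hormone leptin, read lower in every lamb, by 0.84 ± 0.12, and -0.11 under normexp.

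Of 17 tested genes of fatty acid uptake, storage and oxidation, 4 rose and 2 fell (3 and 2 with slide as a block), with a median of 0.03. As a share called this is no more than the 38.8% of all features. CPT1A, the liver-type form of the enzyme that admits long-chain fatty acids to mitochondria, read -2.16 to 0.52 (median -2.0) in term fetuses and -0.75 to 0.27 (median -0.15) in lambs. Term fetus 2 stood alone at 0.52, and the other 7 lay below every lamb. The difference was 1.51 ± 0.32 (SE; adjusted p = 0.00129). CPT1B, the muscle-type form, read 2.56 to 3.38 (median 2.97) in term fetuses and 2.91 to 3.74 (median 3.09) in lambs, a difference of 0.25 ± 0.14 (SE, adjusted p = 0.163). CPT1B passed after scaling to the median, at 0.34 (adjusted p = 0.0489), and among the lambs of slide 6 alone, at 0.58 (adjusted p = 0.0127).

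ACSS2, which makes acetyl-CoA from acetate, a main fuel of ruminants, read -1.79 to -0.29 (median -0.75) in term fetuses and -0.94 to 1.46 (median 0.69) in lambs and rose by 1.36 ± 0.28. FABP5, a fatty acid binding protein, rose by 1.20 ± 0.24, with term fetus 2 again the highest at 4.61. LPL, which frees fatty acids from blood lipids, rose by 0.55 ± 0.16 and did not pass with slide as a block (adjusted p = 0.0526) or under normexp, which gave 0.46. PLIN1, the coat protein of fat-cell lipid droplets, read -1.13 to -0.50 (median -1.03) in term fetuses and -3.13 to -1.73 (median -2.28) in lambs without overlap and fell by 1.45 ± 0.18. FASN, the fatty acid synthase, was dim and lower in every lamb, by 1.33 ± 0.19, but read 0.05 under normexp. LEP, FASN and PLIN1 are also fat-cell markers. Of 7 such markers tested, 3 fell and 1 rose (3 and 0 with slide as a block), where 22.9% and 15.9% of all features did. The summed level of the fat-cell markers ran from 2.34 to 3.14 at term and from 2.61 to 3.33 in lambs, and its part in these falls was not tested. Bright members such as LPL, which rose, weigh most in this sum. PPARGC1A, a coactivator of mitochondrial genes, did not pass (difference -0.19 ± 0.17).

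In the list of glycolysis, glycogen and glucose uptake, 2 of 17 rose and 3 fell (1 and 1 with slide as a block). Over all features 15.9% rose and 22.9% fell, so these counts are no result about the list. The gene listed as glut4, the insulin-responsive glucose transporter, was among the bright genes at 4.14 to 5.00 (median 4.63) in term fetuses and 3.32 to 4.33 (median 3.79) in lambs. It fell by 0.77 ± 0.16 (adjusted p = 0.00112), and a second probe read -0.66. Of 6 tested genes of oxidative phosphorylation and mitochondria, none rose and 1 fell (ATP5PO, a subunit of ATP synthase, -0.50 ± 0.18), and that call ended with slide as a block (adjusted p = 0.0849).

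Receptors of the vessel wall changed in both directions. KDR, the main signalling receptor for vascular endothelial growth factor on endothelium, read -3.68 to -2.70 (median -2.93) in term fetuses and -2.0 to -1.27 (median -1.57) in lambs. Every lamb exceeded every term fetus, and the difference of 1.45 ± 0.15 (SE; adjusted p = 2.37e-06) passed under every alternative fitted. VEGFA, its ligand, read 0.35 to 1.61 (median 1.15) in term fetuses and 0.25 to 2.04 (median 1.29) in lambs, a difference of 0.10 ± 0.22 (SE; adjusted p = 0.751), and HIF1A, the oxygen-regulated factor, differed by 0.22 ± 0.17, which passed after quantile normalization, at 0.48 (adjusted p = 0.0384), and with array weights, at 0.35. ANGPT2, a vessel-remodelling ligand of the receptor TEK, rose by 0.77 ± 0.16, but 0.63 under normexp did not pass. PECAM1, an adhesion molecule of endothelium, rose by 0.68 ± 0.22 and did not pass with slide as a block (adjusted p = 0.0715) or under normexp, which gave 0.60. Among 8 endothelial markers, 3 rose and 2 fell, where 15.9% and 22.9% of all features did. With slide as a block 1 rose and 1 fell. That fall was of SELE (-1.26), well above background on 4 term and 0 lamb arrays. The filter let SELE in through the term arrays alone, so its fall was not measured above background in lambs. Its other probe, also dim, read -0.03. Besides PECAM1, the calls that ended with slide as a block were those of tie2 (1.09 ± 0.38), a receptor of angiopoietins, and FLT1 (-0.49 ± 0.18), a receptor of vascular endothelial growth factor. Under normexp 1 marker (KDR) rose and none fell, so the calls of tie2, FLT1 and SELE ended there. The markers' summed level was 1.39 to 2.50 at term and 1.97 to 3.23 in lambs. It lay close to that of PECAM1 alone, 1.17 to 2.37 and 1.70 to 3.08.

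GUCY1B1, the haem-binding subunit of the guanylate cyclase that senses nitric oxide, read -3.11 to -2.52 (median -2.97) in term fetuses and -2.17 to -1.21 (median -1.71) in lambs. The groups did not overlap, the difference was 1.24 ± 0.13 (SE; adjusted p = 3.71e-06), and a second probe read 1.34. Of 15 natriuretic, vasoactive and angiotensin system genes, none rose and 7 fell (6 with slide as a block), with a median of 0.03, where 22.9% of all features fell. Under normexp 2 fell and the median was 0.29. EDNRA, the endothelin receptor of smooth muscle, read 0.45 to 0.86 (median 0.65) in term fetuses and -0.58 to 0.46 (median -0.31) in lambs and fell by 0.84 ± 0.14. A second, dimmer probe read 0.43, and the mean of its probes gave -0.21, which did not pass (limma, adjusted p = 0.183). AGTR1, the type 1 angiotensin receptor, fell by 0.63 ± 0.19 and did not pass with slide as a block (adjusted p = 0.0596). The gene listed as AT2, the type 2 angiotensin receptor of fetal tissue, read -3.48 to -2.55 (median -2.92) in term fetuses and -5.02 to -3.55 (median -4.34) in lambs, without overlap. Its difference was -1.30 ± 0.20, and -0.31 under normexp.

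PTGER4, a prostaglandin E receptor that helps to keep the fetal duct between aorta and pulmonary artery open, was dim. It was lower in every lamb, by 1.55 ± 0.21, and read -0.10 under normexp. Of 8 genes of calcium handling, ion channels and adrenergic receptors, only ADRB3 passed, where 38.8% of all features did. ADRB3, the fat-type beta-adrenergic receptor, read -3.01 to -2.11 (median -2.64) in term fetuses and -4.83 to -2.94 (median -4.24) in lambs, a difference of -1.47 ± 0.24 and of -0.32 under normexp. ADRB1, the main beta-adrenergic receptor of heart muscle, read -2.34 to -1.79 (median -2.13) in term fetuses and -3.44 to -0.80 (median -1.49) in lambs, a difference of 0.40 ± 0.27 (SE; adjusted p = 0.252). Without lamb 8, the lowest, the difference was 0.65 and passed (adjusted p = 0.00262).

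**Figure D5:**
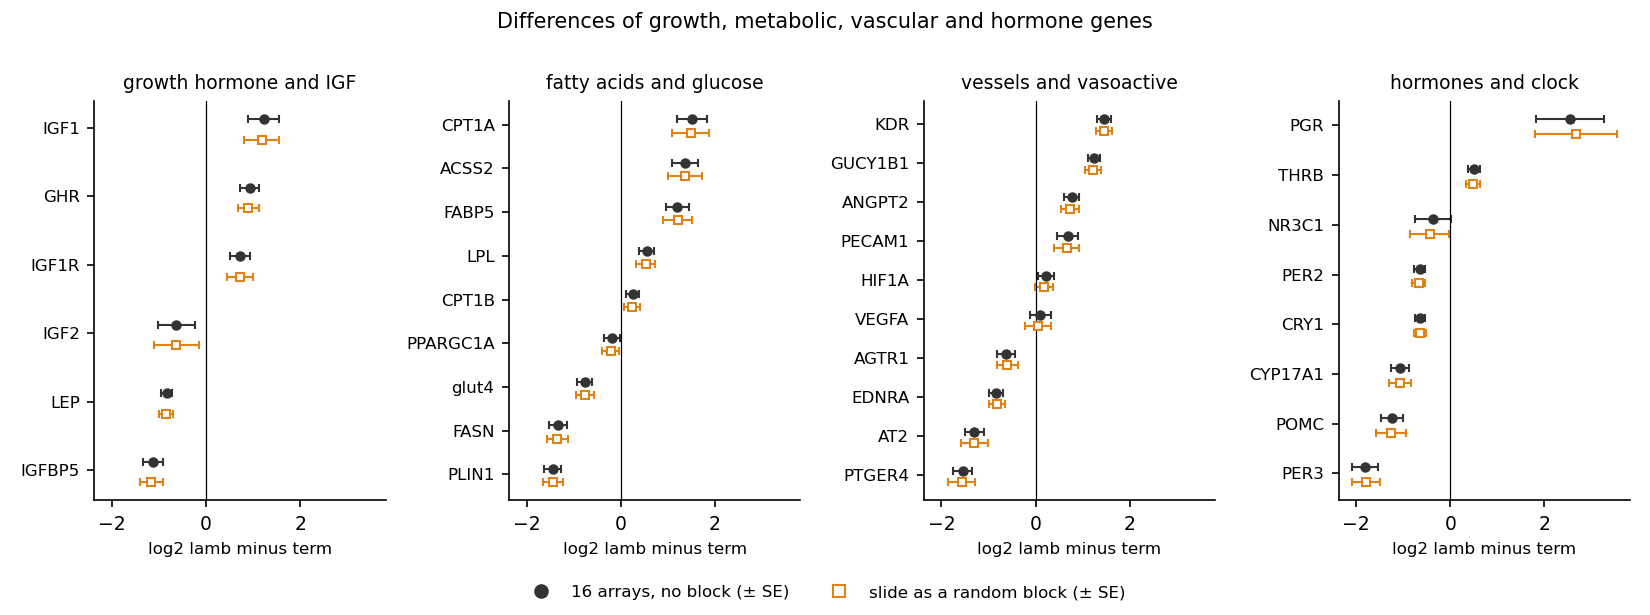
Log2 difference, lamb minus term, with its standard error for genes of 4 groups, from the 16 arrays without a block (filled) and with slide as a random block (open). Estimates barely moved with the block and their errors mostly grew, and KDR, GUCY1B1 and PLIN1 lie far from 0 in both.

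Of 13 tested genes of steroid and thyroid signalling, 2 rose and 3 fell, shares close to the 15.9% and 22.9% of all features. PGR, the progesterone receptor, read -8.57 to -3.54 (median -5.27) in term fetuses and -5.38 to -2.06 (median -3.22) in lambs. It was well above background on 5 term and 8 lamb arrays, 6 lambs exceeded every term fetus, and the difference was 2.54 ± 0.72 (SE; adjusted p = 0.00979). It did not pass among lambs of slide 5 or of slide 6 alone. THRB, the beta receptor of thyroid hormone, rose by 0.50 ± 0.12. NR3C1, the glucocorticoid receptor, read -3.94 to -2.90 (median -3.33) in term fetuses and -5.15 to -2.49 (median -3.62) in lambs, a difference of -0.37 ± 0.38 (SE; adjusted p = 0.47). Its lambs differed by slide, averaging -4.89, -4.13 and -2.58 on slides 5, 6 and 7.

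CYP17A1, a steroid-synthesis enzyme, fell by 1.06 ± 0.19 and POMC, the precursor of ACTH, by 1.24 ± 0.24, each without overlap. HR, a nuclear-receptor corepressor that thyroid hormone induces, fell further than these, at -0.80 to -0.32 (median -0.61) in term fetuses and -3.69 to -1.66 (median -3.39) in lambs. Its difference was -2.43 ± 0.29 (SE; adjusted p = 9.1e-06), and the lambs of slide 5, at -1.67 and -1.66, lay well above the other 6.

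Of 8 circadian clock genes, 3 fell and none rose, and in these 3 every lamb lay below every term fetus, as in 8.56% of all features. The share lower over all features was 22.9%, and under normexp 1 of the 8 fell. PER2, a repressor arm of the clock, read -1.12 to -0.58 (median -0.88) in term fetuses and -1.76 to -1.22 (median -1.55) in lambs and fell by 0.65 ± 0.12. CRY1, its partner, fell by 0.65 ± 0.11, but a second probe, well above background throughout, read 0.54, and normexp gave -0.22. PER3 was dim and fell by 1.81 ± 0.27, and read 0.04 under normexp. The time of day of tissue collection is not given in the sources used here.

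ZFP36, which speeds decay of inflammatory messenger RNAs, read 2.13 to 2.51 (median 2.36) in term fetuses and -0.46 to 0.62 (median 0.29) in lambs. The groups did not overlap, and the difference was -2.17 ± 0.15 (SE; adjusted p = 5.44e-08), although its second probe, printed above, read 0.17. EGR1, an immediate early transcription factor, fell by 0.78 ± 0.15 on probe A, which read -0.31 under normexp and did not pass.

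Of 14 tested genes of the extracellular matrix and its turnover, 5 rose and 2 fell, where 15.9% and 22.9% of all features did. The counts were 3 and 2 with slide as a block and 4 and 0 under normexp. COL3A1, the fibrillar collagen of type III, read -2.59 to -1.75 (median -1.98) in term fetuses and -2.18 to -0.81 (median -1.06) in lambs and rose by 0.76 ± 0.18, and both of its other probes read higher, by 0.77 and 1.37. PLAU, the urokinase-type plasminogen activator, rose by 1.12 ± 0.28, with lamb 8 alone at -4.19, below every term fetus. The protease inhibitor TIMP1 rose by 0.81 ± 0.24 and TIMP2 fell by 0.92 ± 0.21. TIMP1 did not pass with slide as a block (adjusted p = 0.0681), and TIMP2 read -0.18 under normexp. MMP13, a collagenase, was well above background on 8 term and 0 lamb arrays, at least 1.70-fold lower in lambs (means -5.06 and -6.60), but read 0.19 under normexp.

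Of 29 genes of TGF-beta, activin and Wnt signalling, 7 rose and 6 fell, with a median of 0.19, where 15.9% and 22.9% of all features did. The counts were 4 and 5 with slide as a block and 3 and 1 under normexp. Some of the falls were of genes well above background on 0 lamb arrays. The filter let these in through the term arrays alone, so the count of falls is no test of the list. TGFB2, a TGF-beta ligand active in heart development, read -3.26 to -2.63 (median -2.79) in term fetuses and -3.00 to -1.02 (median -1.58) in lambs and rose by 1.11 ± 0.27. The lambs averaged -2.54, -1.86 and -1.13 on slides 5, 6 and 7. INHA, the inhibin alpha chain, rose by 1.35 ± 0.41 and did not pass with slide as a block (adjusted p = 0.0628).

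Cell death genes rose in 3 of 8 cases and fell in none, all 3 also with slide as a block, where 15.9% of all features rose (9.84% with the block). MCL1, which guards against cell death, rose by 0.60 ± 0.11 without overlap, and BAX, which promotes it, by 0.97 ± 0.21. Of 15 genes of the cell cycle and DNA replication, none rose and 1 fell, where 15.9% and 22.9% of all features did. The list's median was 0.10. The fall was that of CDKN1B (-0.52 ± 0.18), an inhibitor of cell cycle kinases, and it did not pass with slide as a block (adjusted p = 0.0566). CDK1, the kinase that drives entry into mitosis, read -3.36 to -2.33 (median -2.75) in term fetuses and -4.30 to -1.37 (median -2.0) in lambs, a difference of 0.18 ± 0.41 (SE; adjusted p = 0.763). Its lambs averaged -3.95, -2.60 and -1.77 on slides 5, 6 and 7. HSPA5, a chaperone of the endoplasmic reticulum, rose by 0.77 ± 0.14, and GSTA1, a glutathione transferase, fell by 1.30 ± 0.21 without overlap.

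The 2 largest falls of named genes were those of precursors of peptide hormones made chiefly in other organs. PRLH, the precursor of prolactin-releasing peptide, read 2.34 to 3.36 (median 3.03) in term fetuses and -3.19 to -1.31 (median -2.09) in lambs. The groups did not overlap, and the difference was -5.01 ± 0.25 (SE; adjusted p = 2.39e-09). CALCA, the precursor of calcitonin, read 0.04 to 1.84 (median 1.02) in term fetuses and -4.73 to -3.62 (median -3.73) in lambs, from 6 term arrays because its spot was marked as an outlier on the other 2. Its difference was -4.89 ± 0.27 (SE; adjusted p = 2.87e-08). OXT, the oxytocin precursor, read -0.21 to 0.60 (median 0.28) in term fetuses and -2.81 to -0.69 (median -1.76) in lambs and fell by 1.92 ± 0.24. LHB, the beta chain of luteinising hormone, fell by 1.82 ± 0.15 and AQP8, a water channel of gut and gland, by 2.74 ± 0.21, again without overlap. Second probes of LHB and AQP8 read smaller falls, -0.95 and -0.80.

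Of 18 tested genes typical of tissues other than heart, 15 fell and none rose, with or without slide as a block. Their median was -1.41. Of all features 22.9% fell, and of the dimmest 3935, 33.5%. Another 25 such genes on the array were too dim to be tested. The filter could let in dim genes through the term arrays alone, where they read higher, so the count is no test of the list. Under normexp 6 fell and the median was -0.03. ASIP, the agouti signalling protein of pigmentation, was a bright member that did not pass. It read 5.07 to 5.67 in term fetuses and 4.06 to 5.20 in 6 lambs, but -4.72 and -5.54 in lambs 3 and 8, for a difference of -3.26 ± 1.44 (SE; adjusted p = 0.0826). Among the lambs of slide 5 alone the difference was -0.76 and passed (adjusted p = 0.00717). ASIP also passed among the lambs of slide 7 alone, at -4.50 (adjusted p = 0.0354). So it did in the fit of all 22 arrays, at -3.26 (adjusted p = 0.0415), and with array weights, at -2.73 (adjusted p = 0.0462).

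The probes of the largest falls often held 1 letter pattern. The hexamer AATAAA, the usual signal for adding the poly(A) tail, was searched on the probe strand only and stood in 7 of the 10 probes behind the 10 largest named falls (PRLH, CALCA, CATHL1B, MYL11, CATHL3, BAC5 and SC5). It stood in 2 of the 10 behind the 10 largest named rises, in 53 of 760 named features (6.97%) and in 692 of 11805 features tested (5.86%). CATHL1B, CATHL3, BAC5 and SC5 lie in 1 family with related sequence, so their probes are not separate cases. Over all tested features the contrast was smaller: 25.4% of features with the hexamer were called lower and 22.8% of those without it. Called higher were 11.1% of features with the hexamer and 16.2% of those without it. Among named features it stood in 10.3% of those called lower and 4.93% of those called higher. Its part in the falls was not tested.

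Most calls were of transcripts without a gene symbol, which made up 11045 of the 11805 features and 4235 of the 4581 calls. The largest rises belonged to probes A_70_P031786 and A_70_P032461. The first read -4.95 to -1.84 (median -4.46) at term and -1.69 to 1.77 (median 0.46) in lambs, a difference of 4.39 ± 0.49, and the second differed by 3.66 ± 0.58. The largest falls belonged to probes A_70_P047866 and A_70_P065816. The first read 2.22 to 3.43 (median 2.89) at term and -4.21 to -1.48 (median -2.41) in lambs, a difference of -5.46 ± 0.29. The second differed by -5.43 ± 0.98, with 1 lamb at -0.55, just under the lowest term fetus. The files do not pair these probes with a gene.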

How the data were processed

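Septum RNA was hybridised to Agilent one-colour sheep arrays; per the labels' protocols, 500 ng of RNA was labelled with Cy3. Per the file headers, the authors' scanner files hold processed signals, which are intensities after background subtraction; per the submitters' processing notes they came from Agilent Feature Extraction 10.1.1.1. The deposited table of log2 values for 10089 probes was made by the authors in steps not given in the sources used here (the submitters' processing notes name limma); it lay closest to quantile-normalised log2 median signals (mean difference 0.0462; column medians 8.75 to 8.83) and served as an alternative.

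After removal of control spots and of spots marked as outliers, replicate spots of a probe were averaged. The log2 of the processed signal minus the array's 75th percentile was analysed. Of 15008 probes, 1550 (10.3%) carried 1 gene symbol, taken from the files and updated through RefSeq gene tables; 726 of 750 RefSeq accessions matched. The brightest probe stood for a gene. A feature was kept if well above background on at least 4 of 8 arrays of either group. Groups came from the labels, and limma 3.58.1 (R 4.3.3) was fitted to the 16 arrays with 14 residual degrees of freedom. Tests were two-sided, and p-values were adjusted by Benjamini and Hochberg's method over all features, with a threshold of 0.05. The fit was tested on simulated data that held no slide or scan effects. Figures were drawn with matplotlib 3.10.9.

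The comparison, gene lists and rule for named genes were chosen with earlier results of these data known. The rule takes the 10 largest called rises and falls measured in both groups, the 5 largest in each direction that slide as a block ends, up to 3 bounded changes each way, up to 3 calls each way per list, and a panel of heart, growth, metabolic and hormone genes. ZFP36, EGR1, GUCY1B1, ITGB2, CD86, PSMB8, EDNRA, CD14, LHB, IFNAR2, ASIP, CD5, CD3D, CD3E and the unnamed probes fall outside it, having been picked with their values already seen. Alternatives covered slide and scan date as blocks, single slides, scaling, background correction, filters, probe choice, array weights, a replicate block and leaving out each array. Some results are not reported here.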

Additional observations from a re-analysis of the deposited data

Results flagged for a closer look

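For 87 of the named genes, 21 of 174 sets of values held 1 array whose gap to its neighbour was a large share of the group's range (Dixon's test, which chance alone meets in about 1 of 20 groups). The sets were groups of 8 arrays, except that CALCA at term had 6 values and was not tested. The arrays set apart were term fetus 1 (7 genes), term fetus 2 (4), lamb 1 (4), lamb 8 (3), lamb 7 (2) and lamb 4 (1). Values are log2 signals after subtraction of each array's 75th percentile.

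Term fetus 1 was low for IGF2 at 3.01, IGF1R at -1.91, BAX at -3.38 and TIMP1 at 1.44, and high for MMP13 at -4.30, PLIN1 at -0.50 and CD80 at -2.80. Term fetus 2, on the same slide, was low for MHCII-DRB1 at -3.63 and COL3A1 at -2.59, and high for CPT1A at 0.52 and FABP5 at 4.61.

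Lamb 1 was the lowest lamb for CALCA at -4.73, AQP8 at -3.26, GSTA1 at -2.14 and LHB at 1.55, all genes that were lower in lambs. Lamb 8 lay below the other lambs for IRF1 at -3.77, PLAU at -4.19 and ADRB1 at -3.44. Lamb 7 was low for LYZ at -4.54 and CD86 at -3.99, and lamb 4 for IGF1 at -4.20. ASIP, with 2 low lambs (3 and 8), is not found by a test for 1 value set apart.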

How the results depend on the processing

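Of 11805 features, 4581 were called. The count was 805 with scan date as a random block, 1377, 1012 and 1698 with the term fetuses of slide 1, 2 or 4 alone (2, 2 and 3 arrays) and 2208 under normexp. It lay within 1.5 times the main count with slide as a block, single lamb slides, all 22 arrays, other scalings, other filters, the mean of probes, array weights and the authors' deposited table. Leaving out 1 array gave 4181 to 5190 calls, the highest without lamb 8, and leaving out both term fetuses of slide 1, chosen after seeing the data, 4049. Under normexp the differences of MMP13 (0.188), FASN (0.0526), PPARGC1A (0.0941), MYOD1 (0.109), NR3C1 (0.194) and PER3 (0.0388) turned positive. Other turns of sign were IGF2 at 0.611 with the term fetuses of slide 1 alone, PPARGC1A at 0.261 (lambs of slide 7), 0.0201 (term fetuses of slide 4) and 0.0101 (array weights), and EGR1 at 0.543 (mean of probes). VEGFA read -0.111 and -0.0853 with lambs of slide 5 or 6, and -0.175 and -0.0637 with term fetuses of slide 1 or 2. Leaving out 1 array gave VEGFA -0.0219 to 0.234 and CDK1 -0.00266 to 0.416. HIF1A read -0.322 and CDK1 -1.14 with lambs of slide 5, CDK1 -0.211 with term fetuses of slide 2, and NR3C1 0.793 with lambs of slide 7. The cause was not tested. Of 87 genes followed through the alternatives, 78 kept direction and side of the threshold with slide as a block, 35 with scan date as a block and 62 under normexp. Among these 87, MX1 alone lost its call when 1 array was left out. CD5, CD3D, CD3E, tie2, FLT1, SELE, ATP5PO and CDKN1B, also described, were not among the 87. Signal over background limits the dim genes, but LEP, AT2 and TIMP2, above background on every array, also lost their calls under normexp.

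Term and lamb samples share replicate numbers, but the numbers do not pair them: same-numbered arrays deviated with correlations of -0.143 to 0.0733, none of 8 over 0.1, and 1 of 8 arrays correlated best with its own number. With a replicate block 4150 features were called.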
